A study of Mus musculus with 12 samples.

Results

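The phagocyte NADPH oxidase was described here through 6 of its subunits, Cybb, Cyba, Ncf1, Ncf4, Rac1 and Rac2, in RNASeq of splenic T cells. The 6 genes were chosen by name as subunits of this complex, and their identifiers were taken from the GRCm38 annotation, so that they made up 6 of 49315 identifiers in the table of read counts. T cells came from spleens of male mice that were 12 weeks old when infusion began. Magnetic negative selection was used, a step meant to remove other cells, whose markers still had counts in every library. Wild-type animals (WT) and animals that lack miR-214 (miR-214-/-) received angiotensin II (Ang II, 490 ng/kg per day) or vehicle buffer (sham) for 14 days from osmotic minipumps. The 4 groups were thus WT sham, WT Ang II, miR-214-/- sham and miR-214-/- Ang II, with 3 libraries in each. Mice labelled miR-214-/- lacked this microRNA in all tissues and not in T cells alone, and T cells were not divided into subsets in any group.

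The NADPH oxidase of phagocytes moves electrons from NADPH across a membrane to oxygen and so makes superoxide. Its catalytic core in the membrane is a heterodimer of gp91phox (also called NOX2, encoded by Cybb) and p22phox (Cyba), which holds the core stable. On activation cytosolic subunits, among them p47phox (Ncf1) and p40phox (Ncf4), and a Rac GTPase move to the membrane and switch the core on. Rac1 is found in most cell types, whereas Rac2 is the Rac protein of blood cells. Neutrophils and macrophages are the cells best known for this oxidase. B cells and T cells express it as well, and in T cells it has been studied as a target of Ang II in hypertension.

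Sequences that bear on the deleted microRNA and on the subunits with the largest range of levels are given here. The mature miR-214-3p lies at chr1:162223438-162223459 on the plus strand (RefSeq, GRCm38.p6), and its seed, bases 2 to 8, is in capitals. Below it stand the stretches of the 3′ UTRs of Ncf1 (chr5:134221528-134221534, minus strand, GRCm38) and Rac2 (chr15:78560747-78560753, minus strand, GRCm38) that hold its complement CCTGCTG, in capitals, with 10 bases on each side.
miR-214-3p: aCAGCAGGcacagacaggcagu
Ncf1 site: gatctgattaCCTGCTGctgtagtctc
Rac2 site: tttgggtctgCCTGCTGctgccaggct
The 7 letters were looked for on the transcript strand in the annotated 3′ UTRs, and 2 of 6 subunits held them, as did 23.8% of 21124 protein-coding genes. The longer form CCTGCTGA, in which an A follows, was in 0 of 6 subunits and in 6.13% of those genes. Cybb, Cyba, Ncf4 and Rac1 held no match. A match is a run of letters and does not show that the microRNA acts on the transcript.

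The promoters of Cybb (chrX:9469275-9469574) and Ncf1 (chr5:134229576-134229875), both on the minus strand of GRCm38.p6 in RefSeq, are shown because these 2 subunits had the widest range of levels over the libraries. Each runs from 250 bases before to 50 bases after the start of the gene in RefSeq. For Cybb that start lies inside the gene as the GRCm38 annotation gives it (chrX:9435252-9487771, minus strand), not at its end, whereas for Ncf1 (chr5:134220053-134229625, minus strand) the promoter spans the start of the annotated gene. Capitals mark GAGGAA, a core bound by PU.1 (encoded by Spi1, the factor that drives many genes of phagocytes), and GAAANNGAAA, the spaced pair of GAAA that interferon regulatory factors bind, each searched on both strands.
Cybb promoter: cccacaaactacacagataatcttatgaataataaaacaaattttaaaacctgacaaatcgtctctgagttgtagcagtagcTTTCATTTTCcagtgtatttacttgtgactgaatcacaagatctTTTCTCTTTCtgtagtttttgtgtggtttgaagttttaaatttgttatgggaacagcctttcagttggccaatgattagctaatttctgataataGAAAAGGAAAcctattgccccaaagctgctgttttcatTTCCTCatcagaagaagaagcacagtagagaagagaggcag
Ncf1 promoter: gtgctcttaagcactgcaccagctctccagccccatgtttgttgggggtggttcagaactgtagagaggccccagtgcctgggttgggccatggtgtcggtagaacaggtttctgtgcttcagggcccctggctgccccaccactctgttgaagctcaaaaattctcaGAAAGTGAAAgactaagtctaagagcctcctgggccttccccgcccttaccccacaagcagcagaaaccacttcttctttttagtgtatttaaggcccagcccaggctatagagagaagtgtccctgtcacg
The Cybb promoter held 1 match to GAGGAA, read as TTCCTC from base 10 after the start, and 3 matches to GAAANNGAAA that began at -168, -124 and -29. The Ncf1 promoter held 1 match to GAAANNGAAA, which began at -82, and 0 to GAGGAA. The Cyba promoter, on chromosome 8, held 0 of either. Of 32851 promoters of this length, 28.3% held GAGGAA and 3.44% held GAAANNGAAA. Promoters of Ncf4, Rac1 and Rac2 were not analysed here.

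All 6 subunits passed the filter on low counts in every comparison, and their raw counts lay between 1113 (Ncf1 in miR-214-/- sham replicate 2) and 27936 (Rac2 in miR-214-/- Ang II replicate 2). Total counts per library were between 21126874 and 29605988. Counts were set on a common scale as CPM, the count relative to the total of its library, with the trimmed mean of M-values (TMM), which corrects library sizes for differences in composition. Libraries are labelled by replicate number, and the paper describes its samples as separate mice, 3 in each group. The p-values set the difference between groups against the spread between these libraries. In bulk RNA, fewer cells of a type cannot be told apart from less RNA per cell.

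To place the subunits against each other, levels were divided by the merged exon length of each gene (RPKM, CPM per kilobase). In WT sham, Rac2 had the highest level, 305.9 ± 22.1 RPKM (SD, n = 3). Cyba followed with 124 ± 16.0 RPKM and Rac1 with 61.7 ± 0.76 RPKM. Ncf4, at 36.8 ± 2.33 RPKM, Ncf1, at 15.9 ± 1.52 RPKM, and Cybb, at 10.7 ± 3.22 RPKM, completed the order, and no 2 neighbours in it overlapped in WT sham. The catalytic subunit thus had the lowest level per length of the 6 in the WT sham libraries, and the GTPase of blood cells the highest.

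In WT Ang II, Rac2 (249.7 ± 31.0 RPKM), Cyba (127 ± 27.8 RPKM) and Rac1 (64.1 ± 3.19 RPKM) kept this order without overlap between Rac2, Cyba and Rac1. Cybb, at 31.4 ± 18.5 RPKM, came before Ncf1, at 29.5 ± 13.9 RPKM, and these 2 and Ncf4 (46.4 ± 12.7 RPKM) overlapped with their neighbours. The order of miR-214-/- sham was that of WT sham, with Ncf1 (17.4 ± 3.05 RPKM) and Cybb (13.8 ± 3.30 RPKM) overlapping. In miR-214-/- Ang II, Cybb (25.5 ± 9.70 RPKM) stood before Ncf1 (22.4 ± 8.47 RPKM), again with overlap. The plot of level per length shows these orders. Exon bases of Rac1 overlap those of the antisense gene Daglb over 2309 bases and those of Ncf1 overlap Gtf2ird2 over 408 bases. The strand setting of the counting is not given in the sources used here, so reads of Rac1 and, to a smaller extent, of Ncf1 could be those of the partner. Of the 50-base words of each transcript set, 50.3% for Rac1, 7.45% for Ncf1, 2.39% for Cyba and 1.29% for Rac2 also occur in another gene, and 0 for Cybb and Ncf4.

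**Figure D1:**
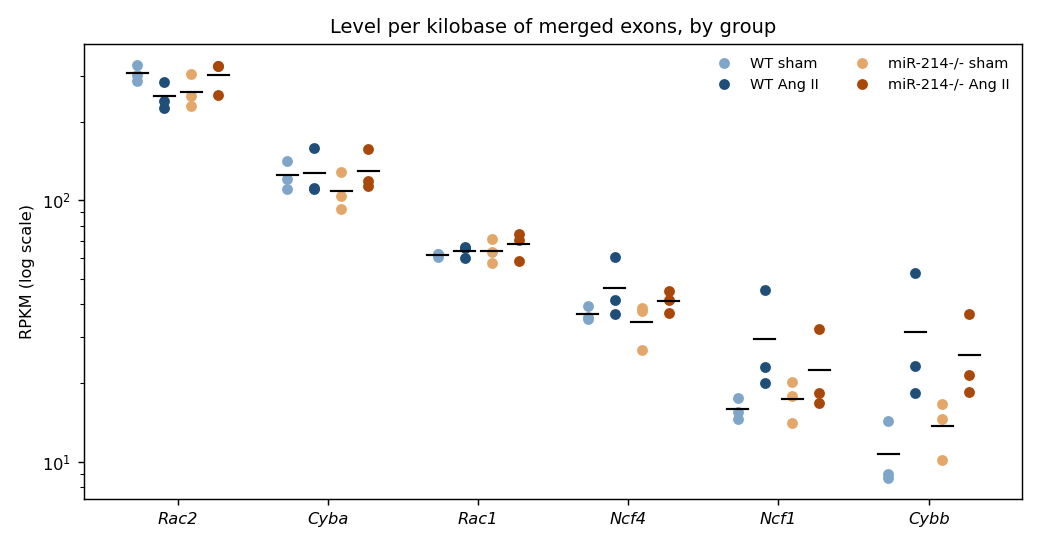
Level of each of the 6 subunits in RPKM (CPM per kilobase of merged exons, TMM-scaled) on a log axis, with a point for each library, coloured by group, and a black bar for the group mean (n = 3). Rac2, Cyba and Rac1 have the highest means in every group, and the points of Cybb and Ncf1 spread widest. In WT Ang II the points of Rac1 and Ncf4 overlap.

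The question of the series was how T cells of WT and miR-214-/- mice respond to Ang II. In the libraries of WT T cells, the level of Cybb was 2.99-fold higher after Ang II, and the other subunits did not pass the test. Genes counted as called had an adjusted p below 0.05 (edgeR quasi-likelihood test, p-values adjusted by Benjamini-Hochberg across all tested genes) and a log2 fold change beyond 1 in either direction. By this rule 1 of 6 subunits was called, against 1169 of 16012 genes (7.30%). The libraries of WT sham and WT Ang II did not overlap for 3 of 6 subunits, Cybb and Ncf1 (higher after Ang II) and Rac2 (lower), against 41.1% of all genes in either direction.

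Within the membrane core, the catalytic subunit and its partner differed. Cybb was at 83.6, 50.3 and 52.3 CPM in the 3 WT sham libraries and at 305, 106 and 135 CPM in the 3 WT Ang II libraries. WT Ang II replicate 1 was the highest of all 12 libraries, and the lowest Ang II library still lay above the highest sham library. The log2 fold change of Cybb was 1.58 (SE 0.42, 95% interval 0.59 to 2.57, adjusted p = 0.0412 in edgeR). Without WT Ang II replicate 1 the log2 fold change was 0.98 with an adjusted p of 0.0279 in edgeR, which was under the adjusted p limit but no longer over the fold limit. The adjusted p was 0.0737, 0.118 and 0.125 in edgeR without WT sham replicate 1, 2 or 3, 0.0747 without WT Ang II replicate 3, and 0.0915 in a robust fit, so the call was lost in each. Cyba, whose protein holds gp91phox stable, was at 115, 126 and 147 CPM in WT sham and at 165, 115 and 115 CPM in WT Ang II. Its groups overlapped, and its log2 fold change was 0.05 (95% interval -0.33 to 0.44, adjusted p = 0.842 in edgeR).

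Of the cytosolic subunits, Ncf1, the organiser that is phosphorylated on activation, was at 64.4, 56.8 and 53.6 CPM in WT sham and at 167, 73.1 and 84.8 CPM in WT Ang II. All WT Ang II libraries lay above the WT sham libraries, with replicate 1 far above the other Ang II libraries. Its log2 fold change of 0.92 (SE 0.30, 95% interval 0.21 to 1.63) had an adjusted p of 0.0750 in edgeR and did not pass. In the 10 alternatives in edgeR or DESeq2 that kept all libraries, the adjusted p of Ncf1 was between 0.0297 and 0.127. Their log2 fold changes were 0.82 to 0.95, under the fold limit, and 0 were called. Without WT Ang II replicate 1 the log2 fold change in edgeR was 0.46 (adjusted p = 0.0282). Without WT Ang II replicate 2 it was 1.13 (adjusted p = 0.0421 in edgeR), which was called. Ncf4, which binds a membrane phosphoinositide, was at 72.4, 71.0 and 79.8 CPM in WT sham and at 123, 74.2 and 84.0 CPM in WT Ang II. Here replicate 1 alone of the Ang II libraries stood well apart, and the groups overlapped. For Ncf4 the log2 fold change was 0.36 (95% interval -0.08 to 0.79, adjusted p = 0.208 in edgeR).

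Neither GTPase passed the test. Rac1 was at 279, 274 and 279.6 CPM in WT sham and at 297, 272 and 296 CPM in WT Ang II, with overlapping groups. Its log2 fold change was 0.08 (95% interval -0.08 to 0.24, adjusted p = 0.453 in edgeR). Rac2 was at 889, 934 and 1024 CPM in WT sham and at 882, 744 and 697 CPM in WT Ang II. Every Ang II library lay below every sham library, by the narrow gap between 889 and 882 CPM. For Rac2 the log2 fold change was -0.27 (95% interval -0.53 to -0.01), with an adjusted p of 0.129 in edgeR, and the unadjusted p was under 0.05. The 10 markers of T cells also had lower values after Ang II in WT (median log2 fold change -0.53), and their part in the level of Rac2 was not tested.

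**Figure D2:**
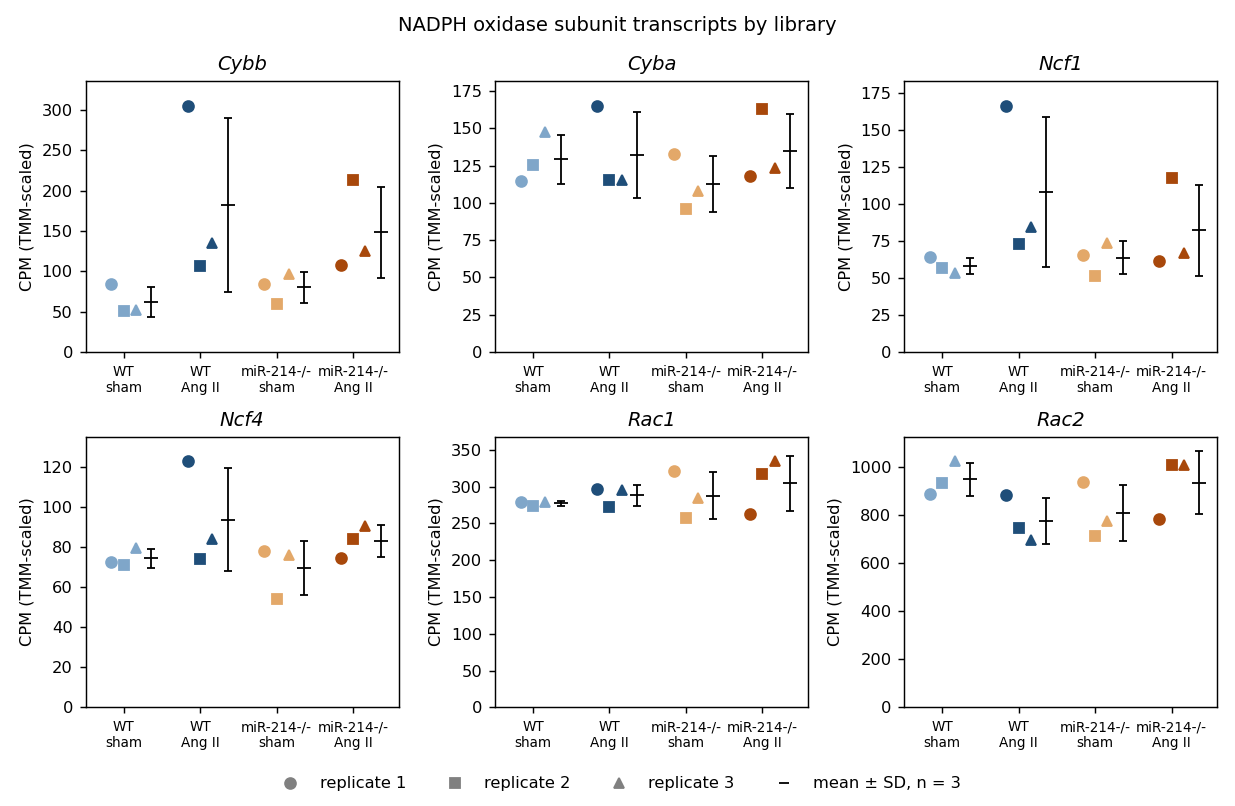
Level of the 6 subunits in CPM (TMM-scaled, linear axes from 0) in each library, with the symbol for the replicate and the mean ± SD of the group (n = 3) beside the points. WT Ang II replicate 1 is the highest library for Cybb (305 CPM), Ncf1 (167 CPM), Ncf4 (123 CPM) and Cyba (165 CPM), and miR-214-/- Ang II replicate 2 is second for Cybb, Ncf1 and Cyba.

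Around the complex, a list of 29 genes held homologues and organisers of the oxidase, its chaperone and regulators, further GTPases with their regulators, and transcription factors. After Ang II in WT, 3 of the 25 tested genes of this list were called, all higher, and none was called lower, against 7.30% of all genes tested. By the adjusted p alone, 4 were higher and 2 lower, against 18.8% of all genes tested in either direction. The median log2 fold change of the 25 genes was 0.03, and that of all genes was -0.02. Members of this list that were called were Pla2g4a, Spi1 and Cebpb.

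Pla2g4a encodes the cytosolic phospholipase that releases arachidonic acid, and was at 4.31, 4.16 and 2.87 CPM in WT sham and at 15.7, 11.9 and 14.5 CPM in WT Ang II. For this gene WT Ang II replicate 1 did not stand apart from the other Ang II libraries, and the log2 fold change was 1.91 (SE 0.22, adjusted p = 0.00344 in edgeR). It was called in all 6 fits that left out a library.

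Spi1 was at 21.7, 18.8 and 15.6 CPM in WT sham and at 84.3, 29.7 and 51.3 CPM in WT Ang II. Cebpb, which encodes a factor of myeloid and activated cells, was at 20.7, 17.96 and 15.9 CPM in WT sham and at 44.5, 25.9 and 38.9 CPM in WT Ang II. Neither gene overlapped between the groups, which also held for 41.1% of all genes tested. The log2 fold changes were 1.59 for Spi1 (SE 0.36, adjusted p = 0.0273 in edgeR) and 1.03 for Cebpb (SE 0.22, adjusted p = 0.0223). Leaving out a library in turn kept the call of Spi1 in 2 of 6 fits and that of Cebpb in 1 of 6. Homologues of gp91phox were low. Nox3 and Nox4 had a count of 0 in all 12 libraries, which leaves room for as many as 3 counts in a library when counting error alone is considered. Duox1 reached 3 counts and Duox2 2 counts, and Nox1 lay between 0.228 and 0.828 CPM.

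Markers of other cells were followed beside Cybb in WT, and those of neutrophils differed most between sham and Ang II by their median log2 fold change. Of 12 markers of neutrophils, 12 were called higher after Ang II in WT, with a median log2 fold change of 3.17. Their summed level was 215 to 288 CPM in WT sham and 1176 to 3529.9 CPM in WT Ang II. Of 15 markers of monocytes and macrophages, 15 had a higher value and 2 were called (median log2 fold change 0.82), and their summed level was 458 to 799 CPM in WT sham and 707 to 2960.1 CPM in WT Ang II. For monocytes and macrophages the sum was 2960.1 CPM in WT Ang II replicate 1. It was 707 and 1192 CPM in the other Ang II libraries, and the lower value lay within the sham range. A large part of this sum came from 1 gene, Lyz2, at 1286, 376 and 546 CPM in the WT Ang II libraries. Lyz2 was at 179, 184 and 178 CPM in the WT sham libraries. Of 8 markers of dendritic cells, 1 was called higher, and their summed level was 44.1 to 111 CPM in WT sham and 91.3 to 141 CPM in WT Ang II. Of 10 markers of B cells none was called, and their summed level was 83.3 to 434 CPM in WT sham and 138 to 203 CPM in WT Ang II.

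Of 9 markers of red-cell precursors found in the table, 4 were called higher, and their summed level was 307 to 509.7 CPM in WT sham and 955 to 5575 CPM in WT Ang II. All 8 markers of cycling cells were called higher, from 236 to 287 CPM in sum in WT sham to 1146 to 1312 CPM in WT Ang II. The 10 markers of T cells had lower values after Ang II, 8 of them with an adjusted p under 0.05 and none past the fold limit, with sums of 4057 to 4763 CPM in WT sham and 2686 to 3302 CPM in WT Ang II. No marker of these lists was at 0 in any library. WT Ang II replicate 1, the highest library for Cybb, also had the highest sums for neutrophils, for monocytes and macrophages, for dendritic cells and for red-cell precursors. The part of these cells in the levels of Cybb, Ncf1 and Spi1 was not tested.

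**Figure D3:**
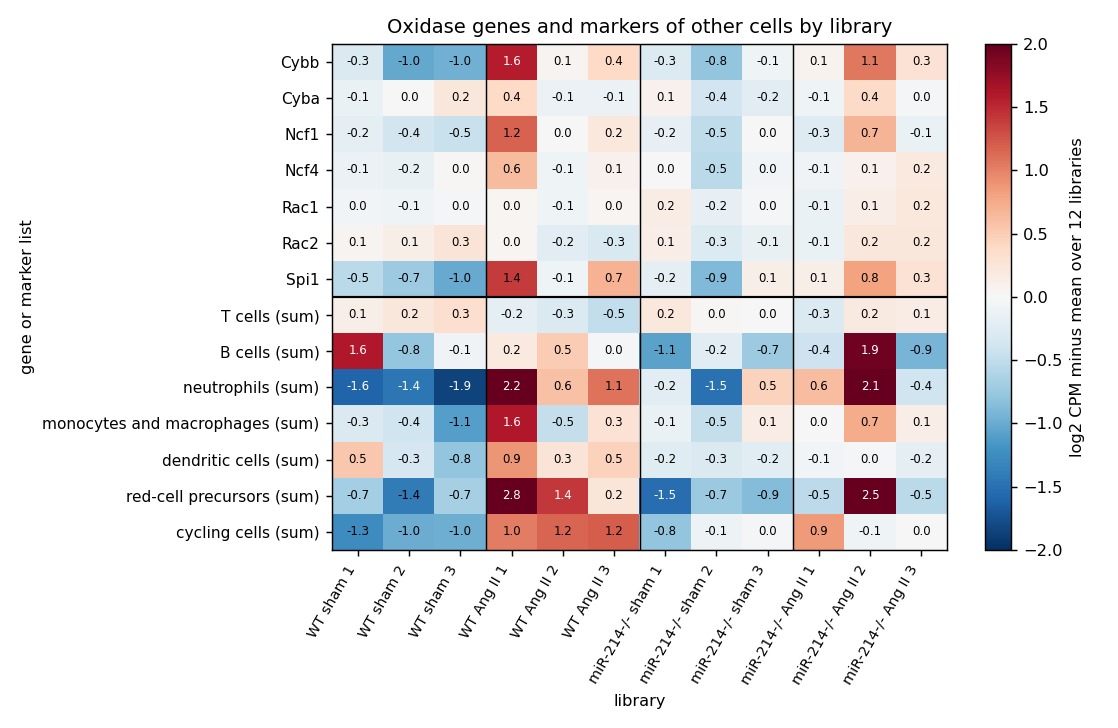
Log2 CPM minus its mean over the 12 libraries, as colour and number, for the 6 subunits and Spi1 (rows above the line) and for the summed level of 7 marker lists (rows below it), with libraries as columns. WT Ang II replicate 1 and miR-214-/- Ang II replicate 2 are high in Cybb, Ncf1 and Spi1 and in the sums for neutrophils, monocytes and macrophages, and red-cell precursors, while the sum for T cells is 2686 to 3302 CPM in WT Ang II and 3079 to 4276 CPM in miR-214-/- Ang II.

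In the libraries of miR-214-/- T cells, none of the 6 subunits was called after Ang II, although Cybb was higher in every Ang II library. In edgeR 0 of 6 subunits were called, against 0 of 15937 genes (0.00%), and 1 subunit had an unadjusted p under 0.05, as did 1939 genes. DESeq2 called 51 genes and 0 subunits. The groups did not overlap for 1 of 6 subunits, Cybb, against 19.3% of all genes.

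Cybb was at 84.6, 58.9 and 96.4 CPM in miR-214-/- sham and at 108, 213 and 125 CPM in miR-214-/- Ang II. Replicate 2 was the highest of the Ang II libraries, and replicate 1 lay just above the highest sham library. Its log2 fold change was 0.90 (SE 0.29, 95% interval 0.22 to 1.57), with an adjusted p of 0.322 in edgeR. In DESeq2 its adjusted p was 0.0299 with a log2 fold change of 0.89, under the fold limit, and the adjusted p was between 0.0299 and 0.774 over all alternatives. Without miR-214-/- Ang II replicate 2 the log2 fold change in edgeR was 0.54.

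Cyba was at 133, 96.1 and 108 CPM in miR-214-/- sham and at 118, 163 and 123 CPM in miR-214-/- Ang II, with overlap (log2 fold change 0.27, 95% interval -0.12 to 0.65). Ncf1 was at 65.6, 51.7 and 73.8 CPM in sham and at 61.7, 118 and 67.1 CPM in Ang II, where replicate 2 alone lay above the sham libraries (log2 fold change 0.37, 95% interval -0.24 to 0.98). Ncf4 was at 78.3, 54.0 and 76.3 CPM in sham and at 74.7, 84.1 and 90.6 CPM in Ang II (log2 fold change 0.26, 95% interval -0.10 to 0.62). Among these 3 genes the groups overlapped in each case. Rac1 was at 321, 258 and 285 CPM in sham and at 263, 317 and 335 CPM in Ang II (log2 fold change 0.09, 95% interval -0.21 to 0.38). Rac2 was at 939.7, 712 and 774 CPM in sham and at 783, 1009.9 and 1009 CPM in Ang II (log2 fold change 0.21, 95% interval -0.17 to 0.59). Adjusted p-values of these 5 subunits lay between 0.515 and 0.798 in edgeR.

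Of the 25 tested genes of the wider list, 21 had higher and 4 lower values, 0 were called and 5 had an unadjusted p under 0.05. Their median log2 fold change was 0.23, and that of all genes was 0.03. In miR-214-/- Ang II, replicate 2 held the highest sums of markers for neutrophils (3284 CPM, against 595 and 1205 CPM in the other Ang II libraries), red-cell precursors (4588 CPM, against 560 and 563 CPM), monocytes and macrophages (1632 CPM, against 976 and 1073 CPM) and B cells (551 CPM, against 74.8 and 107 CPM). In miR-214-/- sham these sums were 278 to 1081 CPM, 281 to 485 CPM, 701 to 1085 CPM and 68.0 to 124 CPM. Lyz2 alone made up 924 of the 1632 CPM for monocytes and macrophages in replicate 2. Of the 15 markers of monocytes and macrophages, 7 had higher and 8 lower values after Ang II (median log2 fold change -0.05). Higher values were found for 10 of 12 markers of neutrophils (1.43), all 9 of red-cell precursors (2.48) and all 10 of B cells (1.58). None of these markers was called, and their part in the level of Cybb in replicate 2 was not tested.

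Between genotypes, no subunit differed by the call rule in T cells of either treatment. In sham mice, 0 of 6 subunits were called in edgeR for miR-214-/- against WT, against 3 of 15913 genes (0.0189%), and no subunit had an unadjusted p under 0.05, while 1061 genes did. DESeq2 called 45 genes and 0 subunits. Libraries overlapped for all 6 subunits, whereas 10.2% of genes did not overlap. The log2 fold change was 0.36 for Cybb (95% interval -0.20 to 0.92) and -0.24 for Rac2 (95% interval -0.52 to 0.05). It was 0.12 for Ncf1 (95% interval -0.19 to 0.44), -0.21 for Cyba (95% interval -0.51 to 0.10), -0.10 for Ncf4 (95% interval -0.42 to 0.22) and 0.05 for Rac1 (95% interval -0.15 to 0.25). In miR-214-/- sham, 12 of 12 markers of neutrophils had higher values (median log2 fold change 1.34). So had 12 of 15 markers of monocytes and macrophages (0.12), while 10 of 10 of B cells had lower values (-1.35). The 10 markers of T cells had lower values (-0.14) and the 8 of cycling cells higher values (0.84). None of these markers was called, and their part in the levels of Cybb and Rac2 was not tested.

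In Ang II mice, 0 of 6 subunits were called in edgeR for miR-214-/- against WT, against 0 of 16215 genes (0.00%), and no subunit had an unadjusted p under 0.05, while 1388 genes did. DESeq2 called 21 genes and 0 subunits. Again libraries overlapped for all 6 subunits, and 14.0% of genes did not overlap. The log2 fold change was -0.30 for Cybb (95% interval -1.35 to 0.75), which was 0.31 without WT Ang II replicate 1. It was -0.40 for Ncf1 (95% interval -1.30 to 0.51) and -0.17 for Ncf4 (95% interval -0.64 to 0.29), which were 0.07 and 0.08 without that library. Cyba was at 0.03 (95% interval -0.42 to 0.48), Rac1 at 0.08 (95% interval -0.19 to 0.35) and Rac2 at 0.27 (95% interval -0.09 to 0.63). The intervals for Cybb and Ncf1 are wide enough to hold a change of 1 on the log2 scale in the direction of a lower level. All 12 markers of neutrophils (median log2 fold change -0.36) and all 15 of monocytes and macrophages (-0.61) had lower values in miR-214-/- Ang II. The 10 markers of B cells (0.56) and the 10 of T cells (0.35) had higher values. All 8 markers of dendritic cells (-0.62), 9 of red-cell precursors (-0.57) and 8 of cycling cells (-0.83) had lower values. The unadjusted p in edgeR was under 0.05 for 6 markers of T cells, 3 of dendritic cells, 2 of red-cell precursors and 5 of cycling cells. None of these markers was called, and their part in the levels of Cybb, Ncf1 and Rac2 was not tested.

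The interaction of Ang II and genotype asks whether the response to Ang II differed between miR-214-/- and WT. For this term, 0 of 6 subunits had an adjusted p under 0.05 in edgeR, against 1 of 16770 genes (0.00596%), and 1 subunit had an unadjusted p under 0.05, as did 2483 genes. DESeq2 called 444 genes and 0 subunits. The estimate for Cybb was -0.66, a smaller rise in the miR-214-/- libraries (95% interval -1.88 to 0.55, adjusted p = 0.572), which does not show that the responses differ. Without WT Ang II replicate 1 the estimate was -0.07. For Ncf1 the estimate was -0.52 (95% interval -1.49 to 0.44, adjusted p = 0.572). All 12 markers of neutrophils had negative estimates as well (median -1.72), as had all 15 of monocytes and macrophages (median -0.71). The 10 markers of B cells had positive estimates (median 2.00). The part of these cells in the estimates of Cybb and Ncf1 was not tested. The subunit with an unadjusted p under 0.05 was Rac2, with an estimate of 0.50 (95% interval 0.06 to 0.94, adjusted p = 0.293 in edgeR). Its values were lower after Ang II in WT without overlap and overlapped between the groups in miR-214-/-, and the adjusted p was between 0.0805 and 0.545 over all alternatives. For this term the 10 markers of T cells had positive estimates as well, with a median of 0.51 and an unadjusted p under 0.05 for 7 of them, and their part in the estimate of Rac2 was not tested. Cyba (0.23), Ncf4 (-0.08) and Rac1 (0.03) had estimates nearer to 0. Among the wider list 0 of 25 genes were called in edgeR and 7 had an unadjusted p under 0.05.

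**Figure D4:**
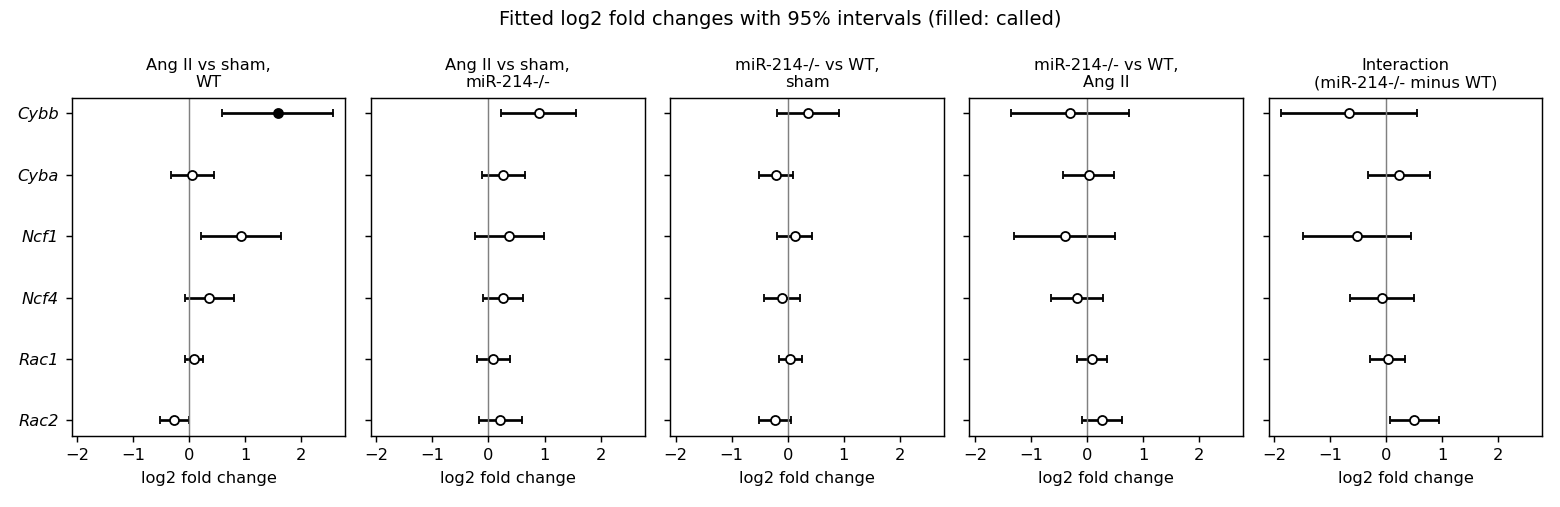
Fitted log2 fold change of the 6 subunits with 95% intervals in each of the 5 comparisons, with a filled point where the gene was called and an open point elsewhere, and a grey line at 0. The filled point is that of Cybb (1.58) after Ang II in WT.

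Over the 12 libraries the range of levels was widest for Cybb and narrowest for Rac1. The highest library was 6.07-fold the lowest for Cybb and 3.23-fold for Ncf1. The ratio was 2.28 for Ncf4, 1.72 for Cyba, 1.47 for Rac2 and 1.30 for Rac1. Likeness of pattern was taken as the root mean square difference of log2 CPM, each gene centred on its own mean over the 12 libraries. This difference depends on the range of the genes, and 2 genes of narrow range have a small value even where their courses differ. Between subunits it was smallest for Rac1 and Rac2 (0.159) and for Cyba and Rac2 (0.164), and largest for Cybb and Rac2 (0.764). The median over all genes was 0.216 for Rac1, 0.254 for Rac2 and 0.775 for Cybb, so values of different pairs are not directly comparable. Cybb was nearest to Ncf1 (0.344) among the subunits.

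For the 3 subunits whose log2 CPM ranged by over 1, the nearest of 12289 genes were named. Those of Cybb were Aldh3b1 (0.116), Apobr (0.158) and Lgals3 (0.180), against a median of 0.775 over all genes. Lgals3 encodes galectin-3, a lectin abundant in macrophages, and Aldh3b1 an aldehyde dehydrogenase. Aldh3b1 was at 7.80, 4.48 and 3.87 CPM in WT sham and at 25.0, 8.59 and 12.3 CPM in WT Ang II, with the same library highest. Those of Ncf1 were 5031439G07Rik (0.180), Irak3 (0.182) and Gsn (0.185), against a median of 0.517. Those of Ncf4 were Myo1f (0.0899), Xdh (0.108) and Camkk2 (0.109), against a median of 0.331. Irak3 encodes a brake on signalling from Toll-like receptors, Gsn the actin-severing protein gelsolin, and Myo1f a myosin of leukocytes. These distances rest on 12 libraries that share the high libraries WT Ang II replicate 1 and miR-214-/- Ang II replicate 2.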

How the data were processed

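Splenic T cells of WT and miR-214-/- mice infused with buffer (sham) or Ang II for 14 days were studied by RNASeq, in 4 groups of 3 libraries. Poly(A) libraries were sequenced as paired ends, trimmed with Trimmomatic, mapped to GRCm38 with STAR and counted over exons by gene with featureCounts (Subread 1.5.2, also in the submitters' processing notes). The authors deposited raw counts per gene without normalization. The annotation release and the strand setting are not given in the sources used here.

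Of 49315 identifiers, 49056 matched the GRCm38 annotation, and 12 libraries held 21126874 to 29605988 counts. Counts were tested with edgeR 4.0.16 in R 4.3.3 (filterByExpr, TMM, quasi-likelihood test, Benjamini-Hochberg adjustment over all genes tested). Calls needed an adjusted p below 0.05 and a log2 fold change beyond 1 in either direction, and for the interaction term an adjusted p below 0.05. Genes with a mean log2 CPM above 1 were ranked by likeness of pattern to subunits whose log2 CPM ranged by over 1. The code was tested on simulated data. An exact permutation test of 3 against 3 cannot give a p below 0.1, so none was used. Alternatives were DESeq2 1.42.0, the tool of the study, with independent filtering at 0.1, other scalings and filters, a replicate block, a single fit over all groups, other quasi-likelihood fits, the adjusted p alone and leaving out each library. RPKM used the merged exon length, with the longest transcript and library size alone as alternatives. Figures were drawn with matplotlib 3.10.9. Genes named were all 6 subunits, the called genes of the wider list and the 3 genes nearest in pattern to a subunit. The subunits, lists and tests were chosen with earlier results of these data known. Nox1, Nox3, Nox4, Duox1 and Duox2 were named after their values were seen. Results for 1 item of the wider list are not reported here. Of the 12 pairs of libraries within a group 0 were identical.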

Additional observations from a re-analysis of the deposited data

How the results depend on the processing

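After Ang II in WT, the count of subunits called was 1 in 9 of the 10 alternatives that kept all libraries and 0 in the robust fit, and it lay between 0 and 2 when a library was left out. Of the wider list, 3 genes were called after Ang II in WT, 6 by the adjusted p alone and between 1 and 3 without a library. For the interaction the wider list gave 0 in edgeR, 1 in DESeq2 and between 0 and 1 when a library was left out (1 without miR-214-/- Ang II replicate 1). In the other comparisons 0 subunits and 0 genes of the list were called under every alternative run. Of 504 recomputed log2 fold changes of subunits, 19 changed sign, all of values that were not called. Of these, 3 kept all libraries, namely Cyba between the Ang II groups (-0.018 with scaling by library size alone) and the interaction of Rac1 (-0.042 with that scaling and -0.00086 in DESeq2). Without a library the log2 fold change lay between -0.15 and 0.15 for Cyba after Ang II in WT. In miR-214-/- against WT it lay between -0.19 and 0.056 for Ncf4 and between -0.034 and 0.13 for Rac1 in sham. In Ang II mice it lay between -0.65 and 0.31 for Cybb, -0.13 and 0.24 for Cyba, -0.75 and 0.069 for Ncf1, and -0.32 and 0.085 for Ncf4. For the interaction it lay between -0.23 and 0.17 for Ncf4 and between -0.046 and 0.12 for Rac1. The cause of these changes was not tested.

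Levels in WT sham by the longest transcript were 174 RPKM for Cyba, 20.2 for Ncf1, 50.8 for Ncf4 and 66.7 for Rac1, and Rac1 was at 60.5 RPKM by library size alone, and the order of the 6 subunits in WT sham was the same in each. Over all genes, calls after Ang II in WT numbered 3009 by the adjusted p alone and between 564 and 1338 without a library. In miR-214-/- they numbered 51 in DESeq2 and 3 with no filter on low counts. Between the sham groups they numbered 45 in DESeq2, 9 with no filter, 5 in the robust fit, 0 in a single fit over all groups and up to 30 without a library. Between the Ang II groups DESeq2 called 21, and for the interaction 444, with up to 919 without a library (miR-214-/- Ang II replicate 1). Same-numbered libraries did not deviate together in every pair (correlations of deviations 0.198, 0.111 and -0.137 in WT). In miR-214-/- these correlations between sham and Ang II were -0.560, -0.232 and -0.368. No label says that replicate numbers pair the mice, and correlations from 3 libraries in a group cannot decide it. With the replicate block 1 subunit and 2 genes of the list were called after Ang II in WT, 966 genes were called over all tested, 0 between the sham groups, and no other count of subunits changed.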
